A study of Mus musculus with 12 samples.

Results

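The cytoplasmic adaptors of focal adhesions were examined in crypt-enriched tissue of *Zfp148gt/+APCMin/+* mice and *Zfp148+/+APCMin/+* controls. The 10 listed adaptors were *Parva*, *Ilk*, *Lims1*, *Vcl*, *Tln1*, *Tln2*, *Pxn*, *Zyx*, *Ptk2* and *Bcar1*. A member was taken from the deposited value table when the array annotation gave its symbol alone to a transcript cluster, the group of probes that measures 1 transcript region. Of the 10 adaptors, 8 had such a cluster, 1 each, among 22180 genes with a cluster of 1 symbol and 33793 clusters in all. *Ilk* was present only in 3 clusters that it shares with another gene. No cluster carried the symbol *Ptk2*, and it was not analysed here. None of the 8 measured adaptors passed the test between genotypes after adjustment over all clusters (limma, smallest adjusted p among the 8 = 0.725). *Parva* and *Vcl* had the largest differences, both with a lower mean in *Zfp148gt/+APCMin/+* crypts. All 8 adaptors varied more between *Zfp148gt/+APCMin/+* mice than between controls, as did 60.4% of the clusters above the median signal. Without mice 891, 892 and 893 this held for 5 of the 8 adaptors and for 44.2% of those clusters.

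Focal adhesions join integrins, the matrix receptors of the cell surface, to the actin cytoskeleton. Talin binds the tail of the integrin β chain and activates the receptor, and vinculin strengthens the link from talin to actin. Kindlin binds the same tail and recruits the complex of ILK, PINCH and parvin. Paxillin, zyxin, focal adhesion kinase and p130Cas are docking and signaling proteins of these sites. In the intestine, epithelial cells attach to the basement membrane through integrins, while smooth muscle, fibroblasts, endothelium and platelets hold focal adhesion proteins at high levels.

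Both genotypes carried *APCMin/+*, a truncating mutation of 1 *Apc* allele that leads to intestinal adenomas. *Zfp148gt/+* mice had in addition 1 gene trap allele of *Zfp148*, a zinc finger transcription factor, in all cells of the body and not in crypts alone. Crypts were cut by laser from cryosections of the proximal small intestine at 12 weeks of age, and RNA of each of 6 mice per genotype was amplified and hybridized to 1 Affymetrix Gene 2.0 ST array. The mice were on a mixed genetic background, with littermates as controls, but the sources do not say which mice were littermates. All values below are RMA signals on a scale read as log2, and all differences are *Zfp148gt/+APCMin/+* minus *Zfp148+/+APCMin/+*.

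The trapped gene itself was lower in every *Zfp148gt/+APCMin/+* mouse than in every control. The log2 signal of *Zfp148* was 5.45 ± 0.37 in *Zfp148gt/+APCMin/+* crypts and 6.34 ± 0.31 in control crypts (SD, n = 6 mice each, exact permutation test, two-sided p = 0.00216, the smallest p these group sizes allow), with a limma adjusted p of 0.676. The arrays correlated with each other at r = 0.963 to 0.983. The lowest median correlations with the other arrays, 0.967 to 0.969, were those of *Zfp148gt/+APCMin/+* mice 891, 892 and 893. The interquartile range of the signal over all clusters was 2.69 to 2.93 in *Zfp148gt/+APCMin/+* arrays and 2.8 to 3 in control arrays. All 8 epithelial markers and all 5 measured Paneth cell markers lay above the median signal of all clusters, 2.71, and 11 of 13 measured villus enterocyte markers did so too. Markers of cells outside the epithelium were present too. All 17 fibroblast and matrix markers lay above that median, and their mean was 6.51 ± 0.30 (6.13 to 6.84) in *Zfp148gt/+APCMin/+* crypts and 6.89 ± 0.22 (6.53 to 7.23) in control crypts (SD and range, n = 6 each), with 16 markers lower and 1 higher. Of these markers 5 had an unadjusted limma p under 0.05, all with a lower mean. Among all clusters above that median, 58.4% had a lower mean and 5.08% a lower mean with such a p. The 12 smooth muscle markers averaged 5.63 ± 0.15 (5.45 to 5.88) in *Zfp148gt/+APCMin/+* crypts and 5.87 ± 0.35 (5.20 to 6.15) in control crypts, with 11 lower, 1 of them with such a p, and 1 higher. The 8 epithelial markers averaged 9.52 ± 0.11 in *Zfp148gt/+APCMin/+* crypts and 9.59 ± 0.08 in control crypts, with 7 lower and 1 higher. The 11 endothelial markers averaged 3.73 ± 0.23 in *Zfp148gt/+APCMin/+* crypts and 3.83 ± 0.32 in control crypts, with 8 lower and 3 higher. In such bulk tissue, fewer cells of a type and less RNA per cell cannot be told apart.

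The gene starts of the adaptors were read from RefSeq promoter windows of 300 bases (250 before to 50 after a gene start, build GRCm38.p6), which were given for 6 of the 10 adaptors. No window was given for *Parva*, the adaptor with the largest genotype difference, or for *Tln2*, *Pxn* and *Ptk2*. The windows of *Vcl*, *Zyx* and *Tln1* are shown because these adaptors lie at different points of the link from integrin to actin and differed in the size of their genotype difference. Capitals mark the GC box (GGGCGG on either strand) and the CArG box, the element of serum response factor that is known from cytoskeletal genes such as vinculin.

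*Vcl* (chr14:20929148-20929447, plus strand): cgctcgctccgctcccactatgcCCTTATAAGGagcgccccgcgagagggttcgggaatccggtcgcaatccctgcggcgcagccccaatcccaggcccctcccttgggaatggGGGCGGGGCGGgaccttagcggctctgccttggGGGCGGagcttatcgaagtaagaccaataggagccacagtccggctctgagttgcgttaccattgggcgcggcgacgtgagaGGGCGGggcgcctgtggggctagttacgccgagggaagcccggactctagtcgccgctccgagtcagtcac

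*Zyx* (chr6:42349578-42349877, plus strand): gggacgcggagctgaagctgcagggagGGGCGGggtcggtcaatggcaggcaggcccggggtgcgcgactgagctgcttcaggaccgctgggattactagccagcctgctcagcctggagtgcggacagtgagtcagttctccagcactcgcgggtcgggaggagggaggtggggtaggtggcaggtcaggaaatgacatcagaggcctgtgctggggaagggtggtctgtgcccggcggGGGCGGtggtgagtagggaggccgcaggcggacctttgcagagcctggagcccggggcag

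*Tln1* (chr4:43562534-43562833, minus strand): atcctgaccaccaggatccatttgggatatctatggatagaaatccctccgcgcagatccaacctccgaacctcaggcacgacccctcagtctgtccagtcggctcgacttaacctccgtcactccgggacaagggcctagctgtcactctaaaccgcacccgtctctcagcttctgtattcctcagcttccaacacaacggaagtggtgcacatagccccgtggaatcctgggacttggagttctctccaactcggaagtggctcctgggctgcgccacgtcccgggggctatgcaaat

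The *Vcl* window held 4 GC boxes, of which 2 share a base, and 1 CArG box. The CArG box started 227 bases before the gene start, and such a box was found in 535 of 32851 windows of the table (1.63%). The *Zyx* window held 2 GC boxes and no CArG box, and the *Tln1* window held neither. Of the 3 windows of *Lims1*, which had a log2 fold change of -0.02, 1 held 3 GC boxes and the other two none. The 2 windows of *Bcar1* held 2 and 3, and those of *Ilk* 0 and 3. A GC box was found in 35.7% of all windows. A further motif searched on both strands, GGGGAGGGG, was found in 1 window of *Bcar1* and 1 of *Lims1*, in none of the 3 windows shown and in 6.37% of all windows. A match of letters is a description of the window and no evidence of binding there. A relation of these boxes to the genotype differences was not tested.

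*Parva*, which encodes α-parvin, the actin-binding partner of ILK, had the largest difference among the adaptors. In *Zfp148gt/+APCMin/+* mice 783, 891, 892, 893, 897 and 911 its log2 signal was 7.32, 6.61, 6.28, 7.60, 7.28 and 7.34, against 7.67, 7.61, 7.70, 7.66, 7.63 and 7.31 in control mice 782, 885, 888, 889, 895 and 899. Mice 891 and 892 were far below the other 10 mice. Of the controls, 5 of 6 lay above every *Zfp148gt/+APCMin/+* mouse, and control 899 lay among the *Zfp148gt/+APCMin/+* values. The mean was 7.07 ± 0.51 in *Zfp148gt/+APCMin/+* crypts and 7.60 ± 0.15 in control crypts (SD, n = 6 each). The log2 fold change was -0.52 (SE 0.20, 95% confidence interval -0.95 to -0.10), which is 0.695 of the control level (0.517 to 0.935). The exact permutation test of this gene alone gave p = 0.0152 (two-sided, n = 6 each), and limma gave p = 0.02 before and 0.725 after adjustment over all clusters. Without mice 891, 892 and 893 the log2 fold change was -0.28 (limma adjusted p = 0.947, with 0.544 to 0.999 over all alternatives). With each array's interquartile range in the fit it was -0.25 (limma, unadjusted p = 0.384).

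*Lims1* encodes PINCH1, the LIM domain protein that binds ILK in the same complex, and its genotypes overlapped. Its log2 signal was 4.86 at the lowest, 4.98 at the median and 6.06 at the highest in *Zfp148gt/+APCMin/+* mice, and 4.94, 5.13 and 5.52 in controls. The highest value was that of mouse 891, which stood clearly above all others. The log2 fold change was -0.02 (95% confidence interval -0.44 to 0.40), and it took the other sign when quantile normalization was run once more (0.06) or when villus enterocyte markers were a covariate (0.05). It was -0.19 without mouse 891 (limma, unadjusted p = 0.165) and -0.25 without mice 891, 892 and 893 (limma, unadjusted p = 0.119). *Parva* and *Lims1* stood apart in opposite directions in mouse 891, which was low in *Parva* and highest in *Lims1*.

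*Ilk*, the pseudokinase at the centre of that complex, was read only together with another gene. The brighter cluster shared with *Taf10*, a subunit of the general transcription factor TFIID, had a mean of 10.07 ± 0.17 in *Zfp148gt/+APCMin/+* crypts and 10.11 ± 0.08 in control crypts (SD, n = 6 each). The dimmer cluster shared with *Taf10* had 5.67 ± 0.42 in *Zfp148gt/+APCMin/+* crypts and 5.77 ± 0.31 in control crypts, and the cluster shared with *Rrp8*, a nucleolar gene, had a median of 3.92 (3.43 to 4.32) in *Zfp148gt/+APCMin/+* crypts and 4.01 (3.82 to 4.15) in control crypts. Their log2 fold changes were -0.05, -0.10 and -0.10 with limma adjusted p of 0.933, 0.927 and 0.913, and how much of each signal comes from *Ilk* was not tested. Intervals ran from -0.24 to 0.15 for the brightest and from -0.53 to 0.32 for the widest of the 3. None of the 3 clusters separated the genotypes.

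**Figure D1:**
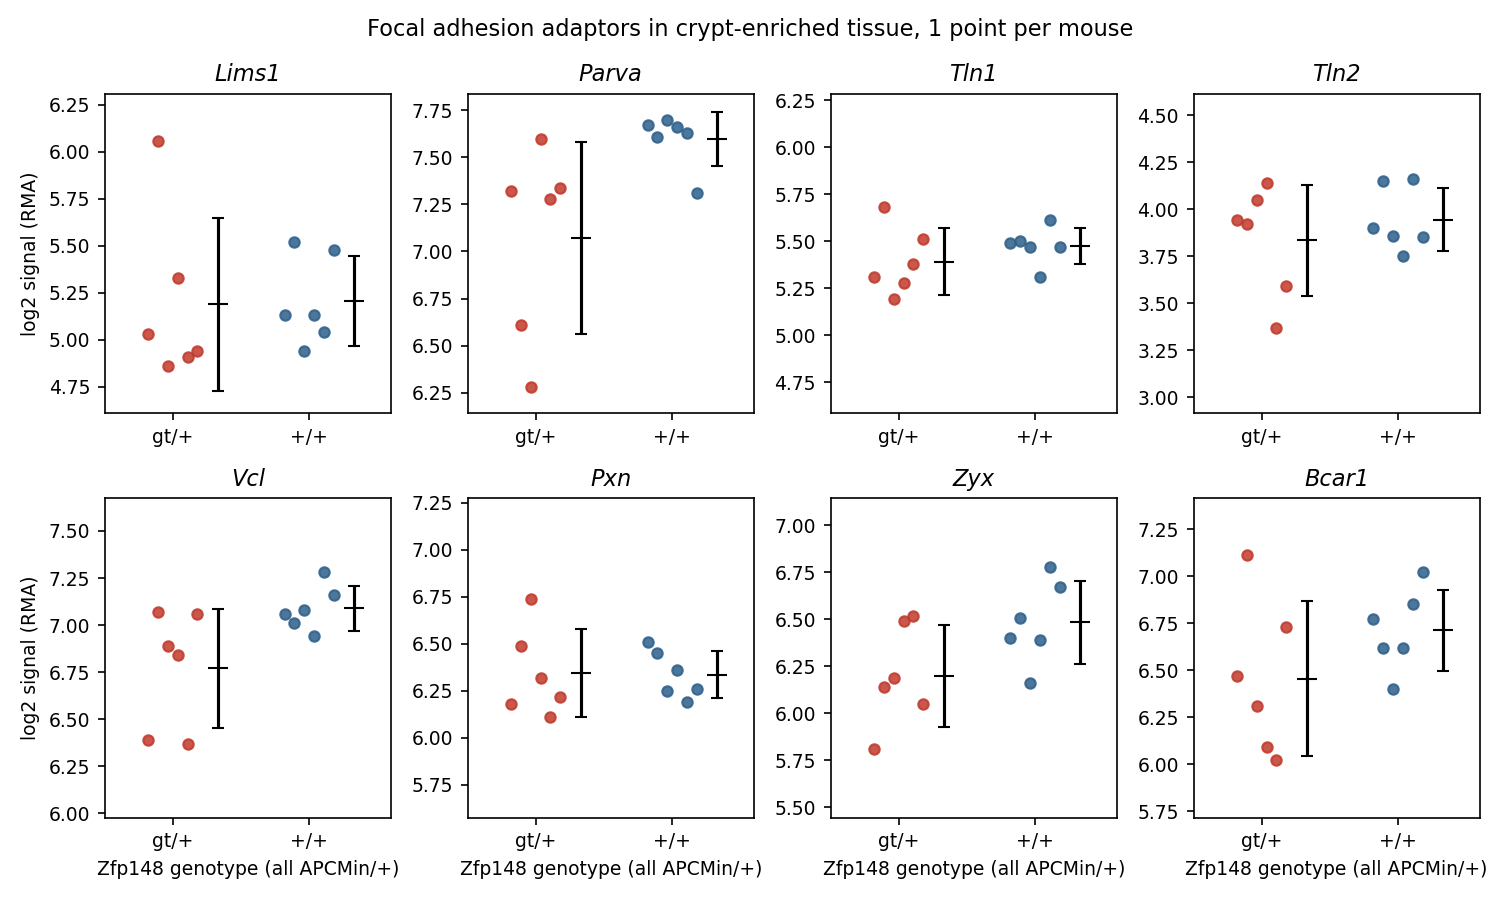
RMA log2 signal (vertical axis, with its own start in each panel and the same span in all) of the 8 measured adaptors in Zfp148gt/+APCMin/+ mice (red, left) and Zfp148+/+APCMin/+ mice (blue, right). Each point is 1 mouse and each bar shows the mean and SD of 6 mice. *Parva* and *Vcl* have several red points below all blue points, while the means of *Pxn* and *Lims1* are nearly level.

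*Vcl* encodes vinculin, which binds talin and actin and takes up load at the adhesion. Its log2 signal was 6.39, 7.07, 6.89, 6.84, 6.37 and 7.06 in *Zfp148gt/+APCMin/+* mice 783, 891, 892, 893, 897 and 911, against 7.06, 7.01, 7.08, 6.94, 7.28 and 7.16 in control mice 782, 885, 888, 889, 895 and 899. Mice 783 and 897 were the lowest, 4 *Zfp148gt/+APCMin/+* mice lay below every control, and 3 controls lay above every *Zfp148gt/+APCMin/+* mouse. The mean was 6.77 ± 0.32 in *Zfp148gt/+APCMin/+* crypts and 7.09 ± 0.12 in control crypts (SD, n = 6 each). On the log2 scale the difference was -0.32 (SE 0.14, 95% confidence interval -0.61 to -0.03), or 0.801 of the control level (0.654 to 0.981). The exact permutation test gave p = 0.0303 (two-sided, n = 6 each), and limma p = 0.0343 before and 0.725 after adjustment. With the mean of fibroblast and smooth muscle markers as a covariate the log2 fold change was -0.23 (limma, unadjusted p = 0.19). The fibroblast and matrix marker mean was lowest in mouse 897 (6.13), which was lowest in *Vcl*. It was next lowest in mouse 891 (6.19), which had the highest *Vcl* of its genotype. Mouse 783, which was low in *Vcl*, had 6.50. Among the controls, mouse 889 had both the lowest marker mean (6.53) and the lowest *Vcl* (6.94). A relation of these markers to *Vcl* between mice was not tested. Mouse 891 (7.07) lay within the range of the controls in *Vcl*, while mice 892 (6.89) and 893 (6.84) lay below the lowest control (6.94). Without mice 891, 892 and 893 the log2 fold change was -0.49 (limma, unadjusted p = 0.0121, adjusted p = 0.947, with 0.544 to 0.999 over all alternatives).

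*Tln1* and *Tln2* encode talins, of which talin 1 is the widespread form and talin 2 is known from muscle and brain. *Tln1* ran from 5.19 over a median of 5.34 to 5.68 in *Zfp148gt/+APCMin/+* mice, and from 5.31 over 5.48 to 5.61 in controls. It had the smallest spread of the adaptors in both genotypes, SD 0.18 in *Zfp148gt/+APCMin/+* crypts and 0.09 in control crypts. The difference was -0.08 (95% confidence interval -0.29 to 0.12), so a change to below 0.819 or above 1.09 of the control level lies outside the interval. *Tln2* ran from 3.37 over 3.93 to 4.14 in *Zfp148gt/+APCMin/+* mice, and from 3.75 over 3.88 to 4.16 in controls. Mice 897 and 911 gave its 2 lowest values, and the other 4 *Zfp148gt/+APCMin/+* mice lay within the controls' range. The log2 fold change of *Tln2* was -0.11 (-0.40 to 0.19) and became 0.10 with the stromal markers as a covariate.

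*Zyx* encodes zyxin, a LIM protein that gathers at stretched actin and recruits Ena/VASP proteins. Its log2 signal was 5.81, 6.14, 6.19, 6.49, 6.52 and 6.05 in *Zfp148gt/+APCMin/+* mice 783, 891, 892, 893, 897 and 911, against 6.40, 6.51, 6.16, 6.39, 6.78 and 6.67 in control mice 782, 885, 888, 889, 895 and 899. Mouse 783 was the lowest, and it was also low in *Vcl*, but mouse 897, lowest in *Vcl*, was the highest of its genotype in *Zyx*. The mean was 6.20 ± 0.27 in *Zfp148gt/+APCMin/+* crypts and 6.48 ± 0.22 in control crypts (SD, n = 6 each). The genotypes differed by -0.28 on the log2 scale (95% confidence interval -0.59 to 0.02, limma p = 0.0621 before and 0.741 after adjustment, exact permutation test p = 0.0801). A decrease to 0.666 of the control level thus lies within the interval, as does no difference.

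*Pxn* encodes paxillin, the scaffold to which focal adhesion kinase and the GIT and PIX proteins bind. It was the 1 adaptor with a higher mean in *Zfp148gt/+APCMin/+* crypts, 6.35 ± 0.24, against 6.34 ± 0.12 in control crypts (SD, n = 6 each). The highest value, 6.74, came from mouse 892, the same mouse that had the lowest *Parva*. Its log2 fold change was 0.01 (-0.24 to 0.25) and was -0.04 once each array was centred on its median, so no direction is given for *Pxn*.

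*Bcar1* encodes p130Cas, a docking protein that SRC and focal adhesion kinase phosphorylate. Its log2 signal was 6.47, 7.11, 6.31, 6.09, 6.02 and 6.73 in *Zfp148gt/+APCMin/+* mice 783, 891, 892, 893, 897 and 911, against 6.77, 6.62, 6.40, 6.62, 6.85 and 7.02 in control mice 782, 885, 888, 889, 895 and 899. Mice 892, 893 and 897 lay below every control while mouse 891 had the highest value of all 12 mice. The mean was 6.45 ± 0.41 in *Zfp148gt/+APCMin/+* crypts and 6.71 ± 0.22 in control crypts (SD, n = 6 each). The difference was -0.26 on the log2 scale (95% confidence interval -0.64 to 0.12, limma adjusted p = 0.785, exact permutation test p = 0.201). Without mouse 891 it was -0.39 and its unadjusted limma p fell under 0.05.

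**Figure D2:**
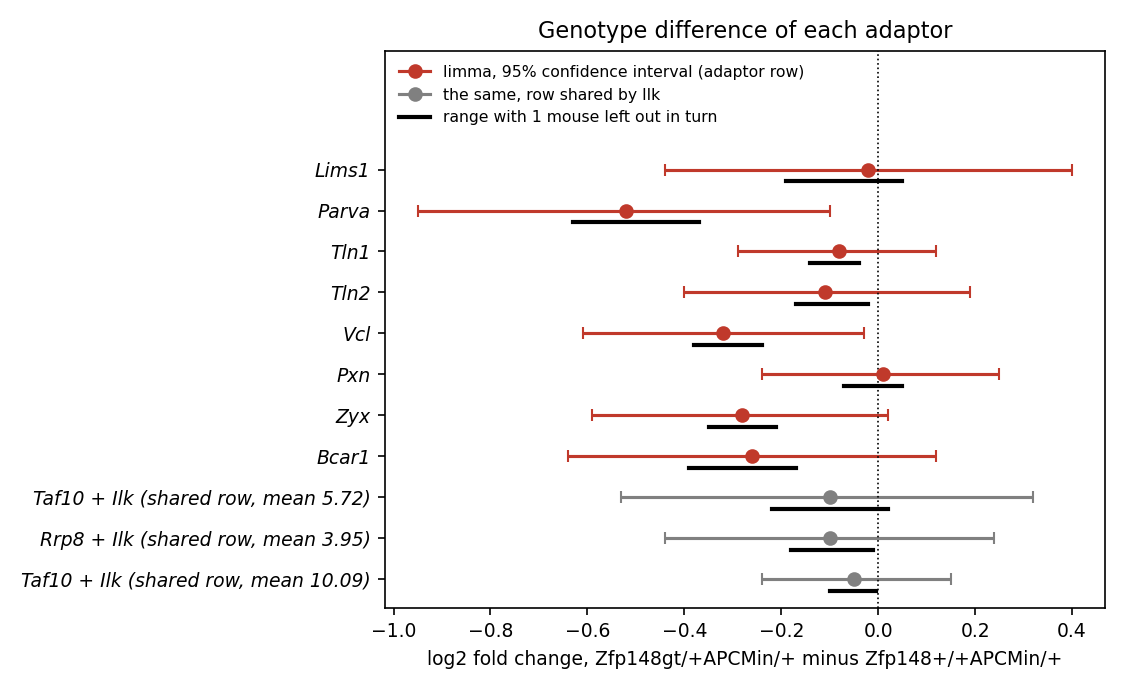
Log2 fold change (horizontal axis, Zfp148gt/+APCMin/+ minus Zfp148+/+APCMin/+) of the 8 adaptors (red) and of the 3 clusters that *Ilk* shares with another gene (grey), with limma's 95% confidence interval; black bars give the range of the value when each of the 12 mice is left out in turn. The intervals of *Parva* and *Vcl* lie below 0, and the other intervals hold 0.

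Counted together, 7 of 8 adaptors had a lower mean in *Zfp148gt/+APCMin/+* crypts and 1 a higher one. The median over the 8 was a log2 fold change of -0.18. Over all clusters 45.2% had a lower mean and the median was 0.02. Since all 8 adaptors lie above the median signal, the nearer background is the 16896 clusters above it, of which 58.4% had a lower mean and whose median log2 fold change was -0.04. No adaptor passed the adjusted threshold of 0.05, as no cluster of the 33793 did (0%, limma, smallest adjusted p 0.625), while 2284 clusters (6.76%) had an unadjusted p under 0.05. An unadjusted p under 0.05 with a lower mean was found for 2 of 8 adaptors, *Parva* and *Vcl*, against 2.88% of all clusters and 5.08% of those above the median signal. No adaptor had genotypes that did not overlap, which 0.308% of all clusters had. The count of adaptors with a lower mean was 8 with each array centred on its median and 6 with quantile normalization run once more. It was also 6 with the stromal markers and 6 with the villus enterocyte markers as a covariate. With quantile normalization *Lims1* (0.06) and *Pxn* (0.08) were the adaptors with a higher mean.

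The adaptors also differed in their spread between mice. The SD was larger in *Zfp148gt/+APCMin/+* crypts for 8 of 8 adaptors, against 58.8% of all clusters and 60.4% of those above the median signal. The ratio of the SD in *Zfp148gt/+APCMin/+* crypts to that in control crypts was 3.48 for *Parva*, 2.65 for *Vcl*, 1.93 for *Lims1* and 1.91 for *Bcar1*. It was lowest for *Zyx*, at 1.21, and the median over the 8 adaptors was 1.9, against 1.15 over the clusters above the median signal. No test was made of these ratios, since the adaptors were measured in the same mice. Without mouse 783 or without mouse 891 the count was 7 of 8, and without mice 891, 892 and 893 together it was 5 of 8, where 44.2% of the clusters above the median signal had the larger SD in *Zfp148gt/+APCMin/+* crypts.

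**Figure D3:**
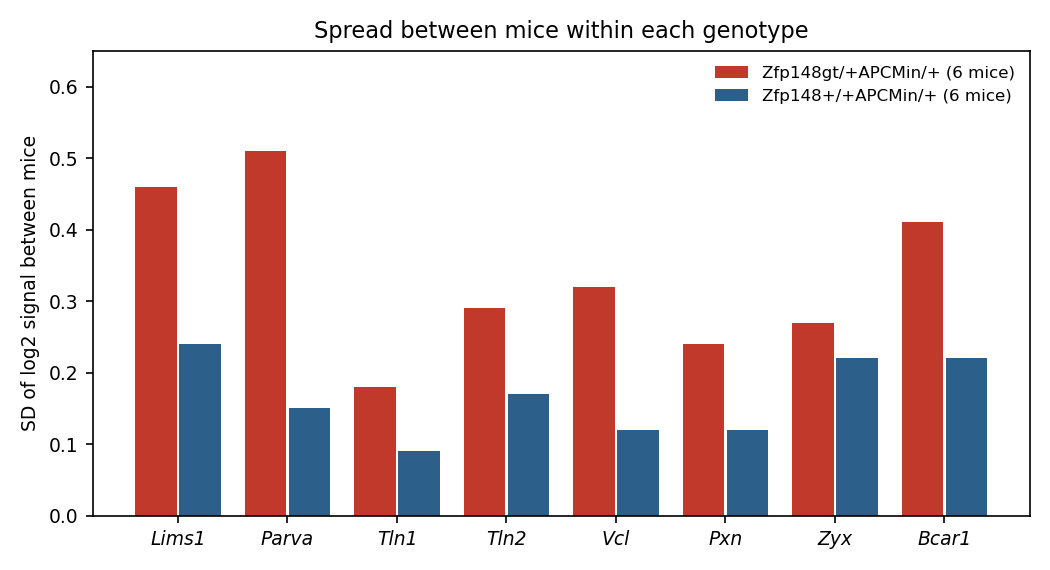
SD of the log2 signal between the 6 mice of a genotype (vertical axis) for each of the 8 adaptors, with Zfp148gt/+APCMin/+ in red and Zfp148+/+APCMin/+ in blue. The red bar is the taller one for every adaptor, and the gap is widest for *Parva* (0.51 in Zfp148gt/+APCMin/+ and 0.15 in Zfp148+/+APCMin/+).

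The low values did not come from 1 mouse. Of the 12 mice, 897 was the lowest in 4 adaptors, 892 in 3 and 783 in 1, all of them *Zfp148gt/+APCMin/+*. The highest value of an adaptor was that of mouse 891 in 3 cases and of 892 in 1, against control 895 in 3 cases and 888 in 1. Mouse 891 was low in *Parva* yet highest in *Lims1*, *Tln1* and *Bcar1*. Mouse 892 was lowest in *Parva*, *Lims1* and *Tln1* yet highest in *Pxn*. Mouse 897 was lowest in *Vcl*, *Tln2*, *Pxn* and *Bcar1*. Its smooth muscle marker mean was the lowest of its genotype (5.45), and that of control 889 was lower still (5.20). Control 889 was the lowest control in *Vcl* (6.94), *Tln1* (5.31) and *Tln2* (3.75). In the other adaptors another control was lowest, and control 889 was the lowest of all 12 mice in none. A relation of these markers to the adaptors between mice was not tested.

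**Figure D4:**
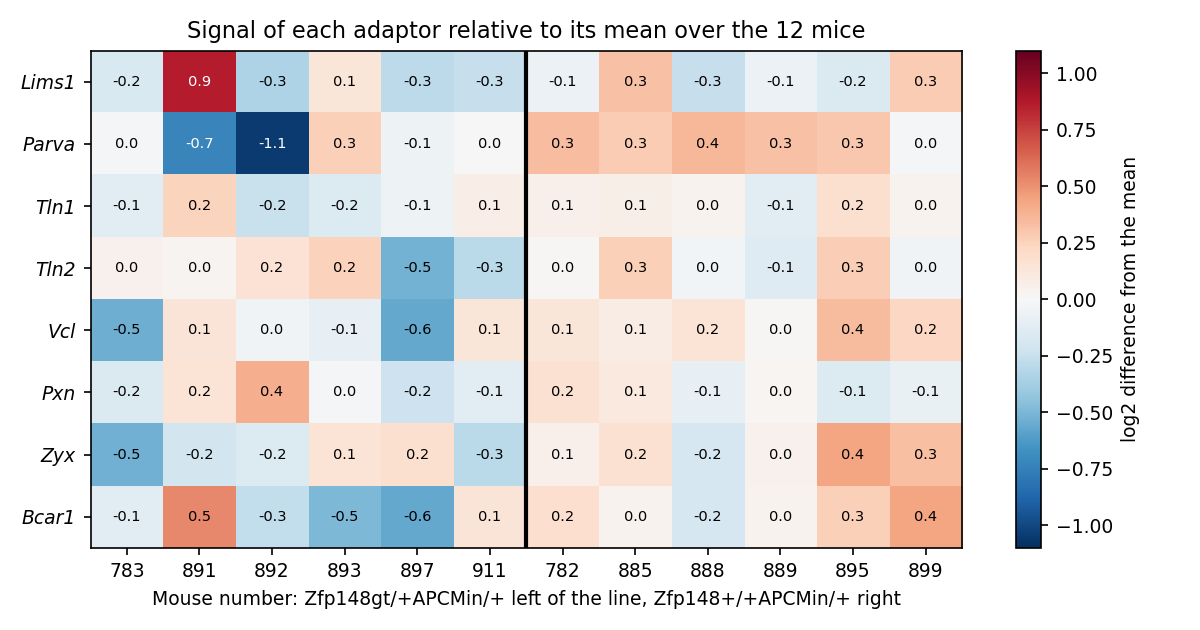
Log2 signal of each adaptor (rows) in each mouse (columns) minus the mean of that adaptor over all 12 mice, printed in each cell and coloured from blue (below the mean) to red (above). Zfp148gt/+APCMin/+ mice are left of the line and Zfp148+/+APCMin/+ mice right of it; the strongest blue cells are *Parva* in mice 891 and 892 and the strongest red cell is *Lims1* in mouse 891.

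Relations between the adaptors from mouse to mouse ran in both directions. After each genotype's mean was subtracted, the 28 pairs of adaptors had Pearson correlations over the 12 arrays from -0.70 to 0.70, with a median of 0.10 and 18 pairs above 0. No pair had an adjusted permutation p under 0.05 by Pearson or Spearman, and 1 had an unadjusted Pearson p under 0.05. That pair was *Tln1* and *Bcar1* (r = 0.70, permutation p = 0.0356, adjusted 0.705; rho = 0.61, p = 0.0609, adjusted 0.835), and r was 0.48 without mice 891 and 892. *Parva* and *Pxn* had the most negative relation (r = -0.70, permutation p = 0.0504, adjusted 0.705; rho = -0.59, p = 0.0894, adjusted 0.835). It rested on mice 891 and 892, without which r was -0.17. Over 12 arrays even r = 0.70 did not pass adjustment, so these tests cannot show that shared variation is absent.

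The genes whose pattern over the 12 arrays was most like that of an adaptor were found among 12837 named genes above the median signal, by Pearson correlation after the genotype means were subtracted. These are descriptions over 12 arrays that share the tissue cut and the processing. Without the 2 mice farthest from the median of the adaptor, r was lower in each case. The lowest r that remained were those of *Tln2* with *Pold1* (0.68), *Lims1* with *Gm6525* (0.69), *Tln2* with *Tnc* (0.71) and *Lims1* with *Tgfb1i1* (0.73). For *Parva* the nearest were *Abcd4* (r = 0.94), *Zfp326* (0.93) and *Bricd5* (0.93), and for *Vcl* they were *Osbpl3* (0.92), *Zdhhc5* (0.92) and *Itsn1* (0.91), the endocytic scaffold intersectin. *Zyx* was nearest to *Angptl7* (0.92), *Phf2* (0.92) and *Papln* (0.89), and *Bcar1* to *Snx20* (0.95), *Myo15b* (0.91) and *Cryba4* (0.90). *Tln1* was nearest to *Mbtps1* (0.95), *Adam15* (0.93) and *Akr1c14* (0.92), and *Tln2* to *Ltc4s* (0.91), *Pold1* (0.86) and *Tnc* (0.84), the matrix protein tenascin C. *Pxn* was nearest to *Nr4a1* (0.92), an immediate early gene, *Zfp800* (0.88) and *Trim3* (0.88). *Lims1* was nearest to *Lingo3* (0.93), *Gm6525* (0.92) and *Tgfb1i1* (0.91), of which *Tgfb1i1* encodes Hic-5, a LIM protein of focal adhesions.

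The other genes of integrin adhesion were read from 7 lists of 82 genes, of which 76 were measured. In all, 59 had a lower mean in *Zfp148gt/+APCMin/+* crypts and 17 a higher one (77.6% lower). The median difference was -0.11. None passed the adjusted threshold, 6 had an unadjusted limma p under 0.05 with a lower mean, and 0 with a higher mean. Of the clusters above the median signal, 58.4% had a lower mean and 5.08% a lower mean with such a p, and of all clusters 45.2% and 2.88% did. The count with a lower mean moved with the processing: it was 64 with each array centred, 49 with quantile normalization once more, 50 with the stromal markers as a covariate and 44 with the interquartile range as a covariate. With the stromal markers as a covariate, 2 of these genes had an unadjusted p under 0.05 with a lower and 3 with a higher mean.

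Integrin chains, the receptors to which the adaptors attach, had the same median as the adaptors, -0.18, with 13 of 14 lower and 1 higher (58.4% lower among clusters above the median signal). Of the 14, 3 had a lower mean with an unadjusted p under 0.05, against 5.08% of those clusters. *Itga1*, the α1 chain of a collagen receptor, was 4.53 at the lowest, 5.11 at the median and 5.39 at the highest in *Zfp148gt/+APCMin/+* mice, and 5.20, 5.43 and 5.63 in controls. Its log2 fold change was -0.40 (95% confidence interval -0.72 to -0.07, limma unadjusted p = 0.0203, adjusted p = 0.725). *Itgav*, the αv chain that binds vitronectin and fibronectin, had a log2 fold change of -0.43 (-0.79 to -0.07, unadjusted p = 0.0238), with 5 of 6 *Zfp148gt/+APCMin/+* mice below every control; a dimmer cluster of *Itgav* gave 0.08. *Itga3*, the α3 chain of a laminin receptor of epithelia, was the other integrin with an unadjusted p under 0.05, at -0.42 (-0.79 to -0.05), and was named after its value was seen. With the stromal markers as a covariate *Itga1* was -0.40 (limma, unadjusted p = 0.0602) and *Itgav* -0.34 (unadjusted p = 0.132).

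Genes of the signaling branch of p130Cas and paxillin had a lower mean in *Zfp148gt/+APCMin/+* crypts in 13 of 13 measured cases of 15 listed, with a median of -0.17 and no unadjusted p under 0.05. A lower mean was found in 58.4% of the clusters above the median signal and in 16 of 17 fibroblast and matrix markers. *Crk*, the adaptor that binds phosphorylated p130Cas and paxillin, had a log2 fold change of -0.17 (-0.37 to 0.03), with 5 of 6 *Zfp148gt/+APCMin/+* mice below every control. *Git2*, an ARF GTPase activating protein that binds paxillin, had -0.25 (-0.52 to 0.03). All 13 values lay between -0.35 and -0.02.

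Relatives of parvin, PINCH and kindlin were split, 4 lower and 3 higher of 7 measured, and their median was -0.08. *Rsu1*, which encodes a leucine-rich repeat protein that binds PINCH1, had the largest difference of all 76 genes. Its signal was 6.77 at the lowest, 7.37 at the median and 7.79 at the highest in *Zfp148gt/+APCMin/+* mice, and 7.17, 7.95 and 8.58 in controls. The log2 fold change was -0.62 (95% confidence interval -1.16 to -0.07, limma unadjusted p = 0.0292, adjusted p = 0.725), and the genotypes overlapped. *Fermt2*, the kindlin of most tissues outside the blood, had -0.20 (-0.47 to 0.07).

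Relatives of paxillin and zyxin had 4 lower and 3 higher of 7, with a median of -0.05. *Ajuba*, a LIM protein of the zyxin family, was the 1 gene of the 76 whose genotypes did not overlap. Of all clusters, 0.308% had genotypes that did not overlap. The *Ajuba* cluster was dim, with a mean of 2.35 over all mice. Its signal was 1.88 to 2.28 in *Zfp148gt/+APCMin/+* mice and 2.32 to 2.90 in controls (log2 fold change -0.44, limma unadjusted p = 0.0042, adjusted p = 0.725), and that mean lay below the median signal of all clusters. *Tgfb1i1* had a log2 fold change of -0.49 (-0.97 to -0.0029, unadjusted p = 0.0488), with 4 of 6 *Zfp148gt/+APCMin/+* mice below every control.

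The genes that activate talin had 6 lower and 2 higher of 8, with a median of -0.10, and the actin linkers 15 lower and 3 higher of 18, with a median of -0.09. Of the clusters above the median signal, 58.4% had a lower mean, and their median was -0.04. *Flna*, the actin crosslinker filamin A, had -0.35 (-0.78 to 0.07) and *Pdlim7*, a PDZ and LIM protein of actin fibres, -0.35 (-0.75 to 0.06). In both, the lowest value of all mice was that of a control. *Kank1*, which binds talin, had -0.16 (-0.51 to 0.20), and *Rap1b*, a GTPase upstream of talin, -0.13 (-0.50 to 0.24), with -0.19 in its other cluster. No gene of these lists had an unadjusted p under 0.05.

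The kinases and phosphatases of adhesions were the 1 list with a median above 0. Of 9 measured, 4 were lower and 5 higher, with a median of 0.03 and no unadjusted p under 0.05. *Ptpn11*, the phosphatase SHP2, had a log2 fold change of 0.22 (-0.03 to 0.46), and *Csk*, the kinase that inhibits SRC, -0.22 (-0.49 to 0.06). *Ptpn11* turned to -0.06 with the interquartile range as a covariate.

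**Figure D5:**
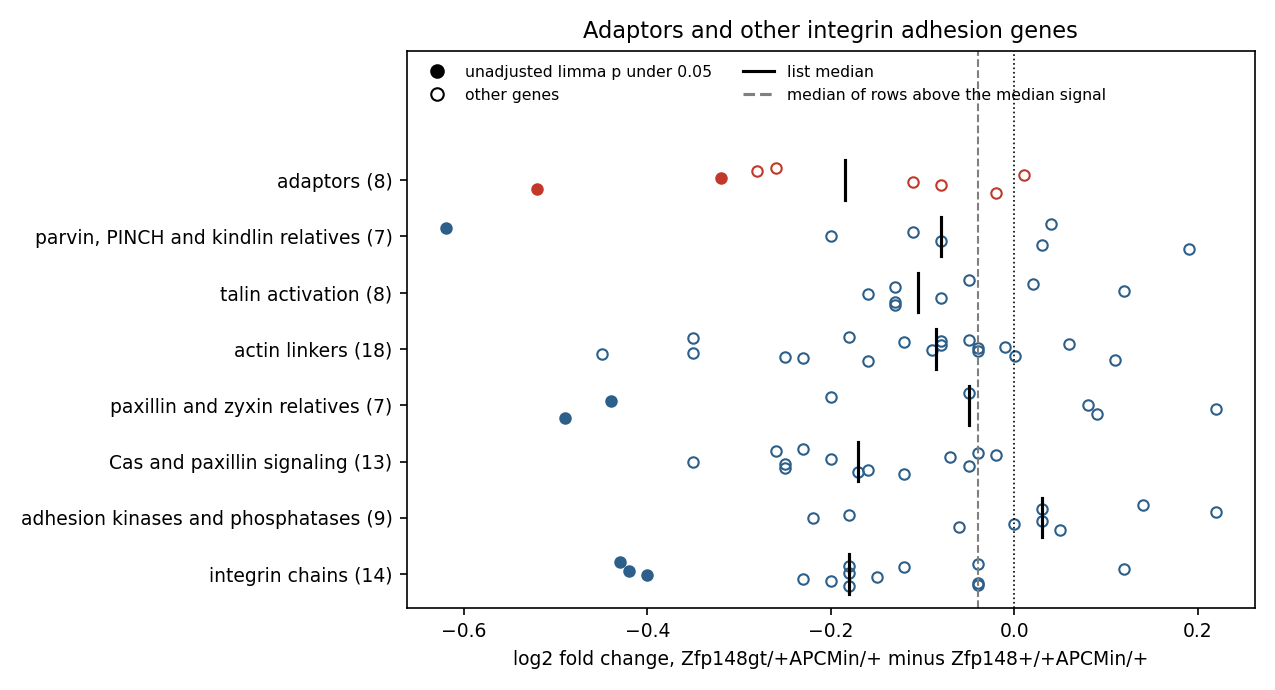
Log2 fold change (horizontal axis, Zfp148gt/+APCMin/+ minus Zfp148+/+APCMin/+) of the adaptors (red) and of the genes of 7 other adhesion lists (blue), 1 point per measured gene with the number measured in parentheses; filled points have an unadjusted limma p under 0.05. Black bars are list medians and the dashed line is the median of all clusters above the median signal, -0.04; the bars of the adaptors and of the integrin chains both lie at -0.18.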

How the data were processed

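Crypt-enriched tissue of 6 Zfp148gt/+APCMin/+ and 6 Zfp148+/+APCMin/+ mice was measured on 1 Affymetrix Gene 2.0 ST array per mouse, and the labels gave genotype and mouse number. The authors normalized the arrays by RMA in Affymetrix Expression Console and deposited 1 value per transcript cluster and mouse. The deposited values, 0.85 to 13.24, were taken as log2 because of that range, and ratios rest on it. The sources used here give neither the log base nor the software version nor the genome build. RMA corrects background, makes the arrays' distributions alike and summarises probes, so a shift common to most genes would be reduced by it.

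Gene symbols came from the platform annotation. The brightest cluster with 1 symbol stood for a gene, and all 8 measured adaptors matched a RefSeq gene of the same symbol by gene ID. Genotypes were compared with limma 3.58.1 (lmFit, eBayes, R 4.3.3), two-sided, with no covariate and Benjamini-Hochberg adjustment over all 33793 clusters at a threshold of 0.05, after the methods of the study. Single genes were also compared by an exact permutation test over all 924 assignments of the 12 arrays, and relations by 100000 permutations within genotype. The script was tested on simulated data with independent clusters and the same SD in both genotypes. That test does not cover the unequal SDs of the adaptors. Signals of arrays have no read depth, so the number of arrays sets the precision. The median SD within a genotype was 0.243. The labels give each mouse a number but nothing on litter. The p-values set a difference against the spread between these mice and treat the mice as independent, which could not be checked without the litters.

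The alternatives were centring, quantile normalization once more, array weights, brighter clusters only, the mean over a gene's clusters, robust eBayes with a trend, adjustment over clusters with 1 symbol, the methods' t-test, covariates (stromal markers, villus markers, interquartile range), each mouse left out, and mice 782 and 783 left out together. Leaving out mice 891, 892 and 893 together, the count of larger SDs and the alternatives for other adhesion genes, *Zfp148* and the clusters shared by *Ilk* were added after seeing the data. Named genes were all members, the 2 genes of smallest p per list and the 3 genes most alike to each member. The members and lists were chosen with earlier results of these data known. Promoter windows were searched in RefSeq's table for GGGCGG, GGGGAGGGG and the CArG box on both strands. Python 3.11.15, pandas 2.3.3, scipy 1.17.1 and matplotlib 3.10.9 were used.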

Additional observations from a re-analysis of the deposited data

Results flagged for a closer look

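In *Parva*, 1 control stood apart from the others. The lowest of the 6 Zfp148+/+APCMin/+ values, 7.31 in mouse 899, was separated from the next, 7.61, by a gap of 0.774 of the group's whole range, above Dixon's critical value for 6 samples. Chance gives about 1 such flag in 20 groups, and 16 groups (8 adaptors in both genotypes) were tested. Without mouse 899 the count of adaptors with an unadjusted limma p under 0.05 was 1, which was *Parva*.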

How the results depend on the processing

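No adaptor passed the adjusted threshold under any alternative run. Over all clusters 0 passed in limma (2284 at an unadjusted p under 0.05). The count was 1 without control 885 (*Olfr467*, 1.20) and 1 without mice 891, 892 and 893 (*Rps13*, 5.43), both named after their values were seen, and 0 to 1 over all settings that leave out 1 mouse. The count of adaptors with an unadjusted p under 0.05 was 2, but 1 with quantile normalization once more, with stromal markers as a covariate or without mice 782 and 783, 0 with the interquartile range as a covariate, and 1 to 3 with 1 mouse left out (1 without Zfp148gt/+APCMin/+ mouse 783 and controls 895 and 899). *Parva* stayed negative in all settings, -0.63 to -0.37 with 1 mouse left out and -0.60 to -0.25 otherwise, with an unadjusted p under 0.05 in 24 of 25. *Vcl* stayed negative, -0.38 to -0.24 and -0.49 to -0.23, with such a p in 16 of 25. These settings are not independent of each other, since they share most of their mice. The mean over a gene's clusters leaves the values of *Parva* and *Vcl* as they were. The count of adaptors with the larger SD in Zfp148gt/+APCMin/+ was 5 without mice 891, 892 and 893 and 7 to 8 with 1 mouse left out. The sign turned in the following cases, and the cause was not tested. *Lims1* was 0.06 with quantile normalization, 0.05 with villus markers and -0.19 to 0.05 with 1 mouse left out. *Pxn* was -0.04 with centring, -0.01 with array weights, -0.13 with the interquartile range, -0.17 without mice 891, 892 and 893 and -0.07 to 0.05 with 1 mouse left out. With the interquartile range *Tln1* was 0.02, *Fermt2* 0.03 (-0.20 with no covariate), *Rap1b* 0.06 and *Ptpn11* -0.06 (0.22 with no covariate). *Tln2* was 0.10 with stromal markers. *Rap1b* was 0.17 without mice 891, 892 and 893. Of the clusters shared by *Ilk*, the dimmer one with *Taf10* was 0.16 with stromal markers, 0.16 with the interquartile range and -0.22 to 0.02 with 1 mouse left out. The brighter one was 0.05 with the interquartile range and 0.08 without mice 891, 892 and 893, and the one with *Rrp8* 0.06 without those mice. No paired analysis was possible because the genotypes share no mouse number and litters are not given. The median of all clusters was 0.02, and -0.02 with centring.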

Other observations

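Paneth cell markers, which mark the secretory cells at the crypt base, had a higher mean in Zfp148gt/+APCMin/+ crypts for 5 of 5 measured genes. Of the 16896 clusters above the median signal, 7031 had a higher mean. The Paneth cell markers averaged 11.00 ± 0.34 (10.59 to 11.46) in Zfp148gt/+APCMin/+ crypts and 10.84 ± 0.23 (10.60 to 11.15) in control crypts (SD and range, n = 6 each). None of the 5 had an unadjusted limma p under 0.05. Crypt stem cell markers averaged 6.24 ± 0.17 in Zfp148gt/+APCMin/+ crypts and 6.28 ± 0.20 in control crypts, and cycling cell markers 7.53 ± 0.22 in Zfp148gt/+APCMin/+ crypts and 7.56 ± 0.10 in control crypts. Macrophage and dendritic cell markers averaged 4.61 ± 0.26 in Zfp148gt/+APCMin/+ crypts and 4.84 ± 0.22 in control crypts, with 10 markers lower and 1 higher, and none had an unadjusted limma p under 0.05. Among the clusters above the median signal, 58.4% had a lower mean. Platelet and erythroid markers averaged 3.47 ± 0.18 in Zfp148gt/+APCMin/+ crypts and 3.33 ± 0.08 in control crypts, over 4 measured of 8, with *Ppbp* and *Itga2b* below the median signal.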
